A study of Mus musculus with 6 samples.

Results

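Foxi1, Tfcp2l1, Hmx2, Emx1, Dmrt2, Gata3, Elf5 and Grhl2 are transcription factor genes of the collecting duct, and several of them mark or specify its intercalated cells. The 8 genes were picked by symbol from the 37583 genes of the deposited expression table, and their read counts were matched by gene identifier. All 8 were among the 13881 genes that passed the filter on low counts. RNA was sequenced from EGFP-positive cells of B1 VATPase EGFP transgenic mice aged 12 weeks, taken 2 h after a sham operation or 2 h after ischemia-reperfusion injury (IRI), an arrest and return of renal blood flow. There were 3 libraries per group, each made from the sorted cells of 4 kidneys of 2 mice, and both groups carried the same transgene. The labels disagree on the source: the series design names the renal medulla and describes the EGFP as specific to intercalated cells, while sample fields name the epididymis and put EGFP under CX3CR1. Because the cells of 2 mice were pooled and nothing says that libraries came from separate experiments, the p-values reflect only how far such pools differ from each other, which may be technical.

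Intercalated cells secrete acid or base into the urine. In the developing collecting duct, neighbouring cells choose between the intercalated and the principal cell fate through Notch signalling. Foxi1, a forkhead factor, is needed for intercalated cells to form and activates genes of their proton pump, and Tfcp2l1, of the CP2 family, acts in the same choice. Gata3, Elf5 and Grhl2 are regulators of duct epithelium and are not particular to intercalated cells.

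At 2 h after IRI, transcripts of 3 of the 8 genes were lower and none was higher. Hmx2 stood 7.72-fold lower, Emx1 5.12-fold lower and Tfcp2l1 1.89-fold lower, and in each of them every IRI library lay below every sham library. Foxi1, the most abundant of the 8, did not pass the test (log2 fold change 0.36 ± 0.19 SE, adjusted p = 0.154), and neither did Dmrt2, Gata3, Elf5 or Grhl2. Calls were made at an adjusted p under 0.05 in edgeR's quasi-likelihood test with Benjamini-Hochberg adjustment over all 13881 genes. Under the same rule 45.5% of all genes tested were called, 24.2% higher and 21.2% lower, so 3 called of 8 is not above the share in the whole table. Groups did not overlap for 56.4% of all genes tested (29.2% with IRI higher, 27.2% with IRI lower) and for the same 3 of the 8 members, all with IRI lower. The median log2 fold change of the 8 was -0.27, beside 0.00 over all genes tested. The count of 0 higher members was also 0 at an unadjusted p under 0.05 and with DESeq2 and limma-voom. It became 1 (Foxi1) without IRI replicate 3. In bulk RNA, fewer cells of a type and less RNA per cell cannot be told apart.

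**Figure D1:**
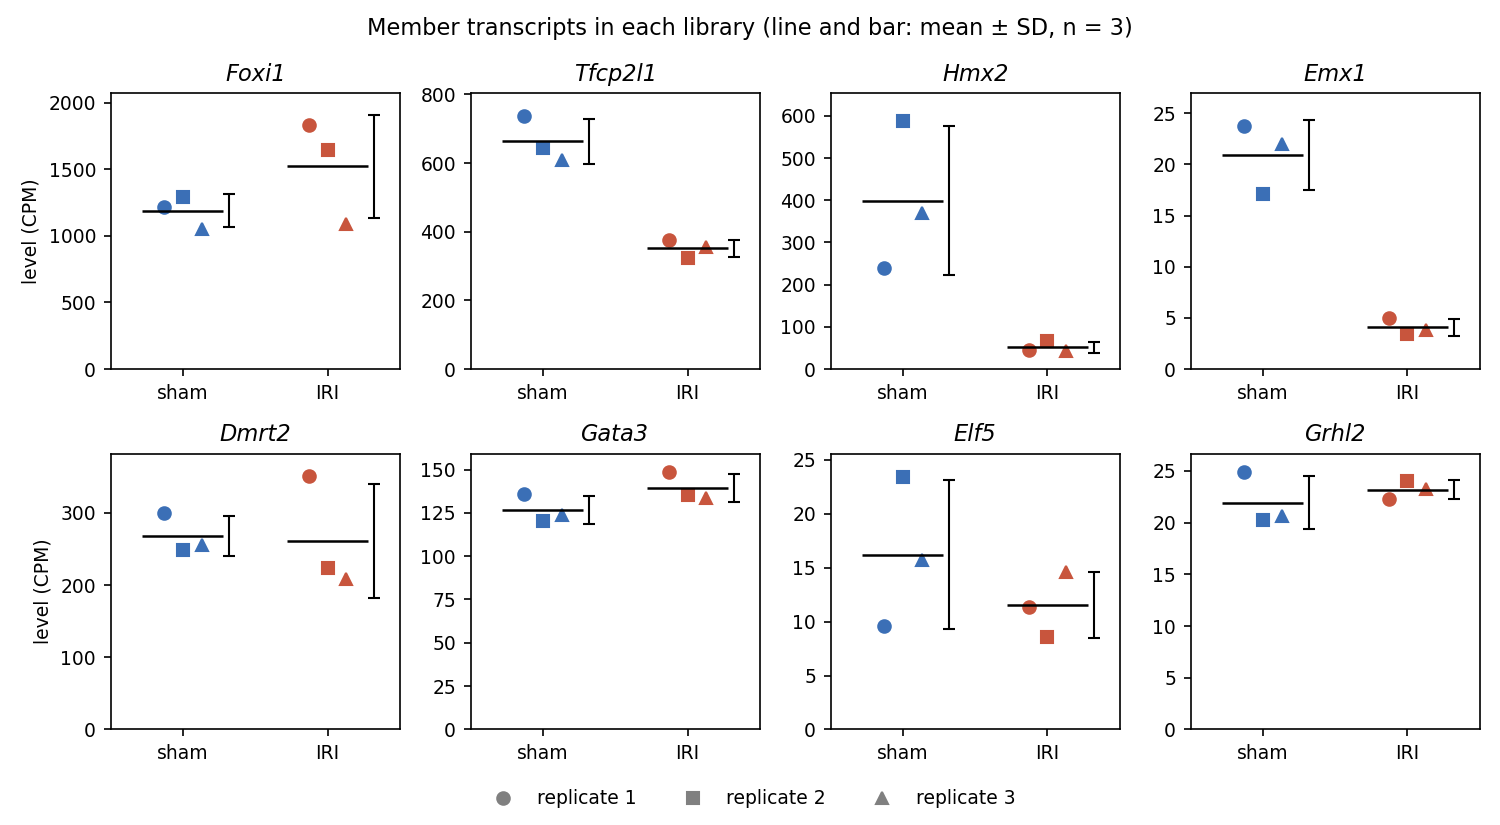
CPM (read counts scaled to library size, linear axes starting at 0) of the 8 transcripts in each library, with sham and IRI on the x axis, 1 marker per replicate and the mean ± SD of n = 3. Hmx2, Emx1 and Tfcp2l1 show separate groups, while the points of the other 5 genes overlap between groups.

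Libraries held 17421669 to 23061108 reads counted in genes in sham and 22478011 to 24245330 after IRI. Emx1, the member with the fewest reads after IRI, had 404 to 604 reads in the sham libraries and 74 to 111 in the IRI libraries. Kidney transcripts were abundant and epididymal ones were not. The 14 epididymis markers summed to 8.31 to 13.5 CPM in sham and 4.63 to 10.4 CPM after IRI, with Lcn5, Lcn8, Cst11, Rnase9 and Teddm1 at 0 reads, and Cx3cr1 had 1 read in each group. Transcripts of other tubule cells were present in both groups. Principal cell markers summed to 14660.3 to 16656 CPM in sham and 8214 to 13981 CPM after IRI, and the 2 groups did not overlap. Thick ascending limb markers summed to 1248 to 2085 CPM in sham and 1119 to 1866 CPM after IRI, and the groups overlapped. Markers of the proximal tubule summed to at most 29.4 CPM and endothelial markers to at most 19.7 CPM in any library. Leukocyte markers summed to 10.4 to 16.7 CPM in sham and 51.5 to 77.2 CPM after IRI, mostly through Cd68 (60 reads in sham and 2453 after IRI). Of the 7 leukocyte markers tested, Cd68, Ptprc (log2 0.77 ± 0.17, adjusted p = 0.00588) and Lyz2 (log2 1.69 ± 0.42, adjusted p = 0.0103) were called higher and Csf1r, C1qa, C1qb and C1qc were not. Itgam went from 3 to 27 reads. The part of such RNA in the members' values was not tested. Sham replicate 2 stood apart from the other sham libraries. It had the highest sum of type B intercalated cell markers (6633 CPM beside 4821 and 5552), the lowest of distal convoluted tubule markers (1236 CPM beside 2802 and 2707) and the highest of fibroblast markers (83.5 CPM beside 18.9 and 29.7). The fibroblast sum was almost all Dcn (2967 sham reads), while Col1a1, Col1a2, Col3a1, Pdgfrb and Pdgfra had at most 2 reads each in sham.

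Levels of different genes were compared per transcript length, in RPKM, which scales reads to transcript length and library size. In sham, Foxi1 led with 511 ± 54.3 RPKM (SD, n = 3), above 99.1% of the genes tested. Hmx2 came next with 243 ± 108 RPKM. Dmrt2 with 102 ± 10.6, Tfcp2l1 with 72.6 ± 7.30 and Gata3 with 27.0 ± 1.72 RPKM followed. Emx1 with 9.72 ± 1.57, Grhl2 with 3.94 ± 0.461 and Elf5 with 3.20 ± 1.37 RPKM were the lowest. Only Grhl2 and Elf5 had overlapping ranges in this order, and Grhl2 was the higher of the pair in 2 of 3 sham libraries. The first 6 places were the same in all 3 sham libraries.

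After IRI, Foxi1 still led with 639 ± 166 RPKM and Dmrt2 took the second place with 96.6 ± 30.1 RPKM, in all 3 libraries. Tfcp2l1 at 37.5 ± 2.96, Hmx2 at 30.6 ± 7.84 and Gata3 at 28.9 ± 1.96 RPKM then lay close together, and neighbours among them overlapped. Hmx2 moved from the second place in every sham library to the third or the fifth place after IRI. Grhl2 at 4.06 ± 0.126 RPKM was above Elf5 at 2.21 ± 0.578 and Emx1 at 1.85 ± 0.388 RPKM, which overlapped each other. Foxi1 made up a mean of 52.8% of the summed RPKM of the 8 genes in sham and 75.6% after IRI, while Hmx2 went from 24.4% to 3.72%. These shares are descriptions of a sum that Foxi1 and Hmx2 dominate.

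**Figure D2:**
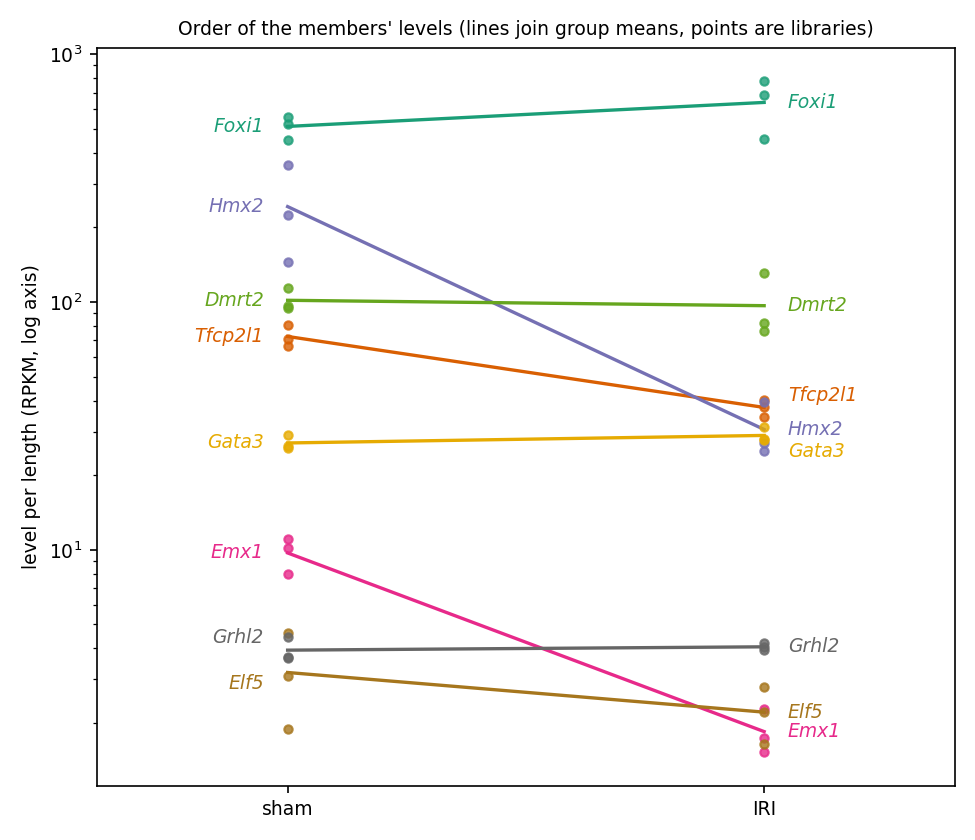
Levels of the 8 transcripts in RPKM on a log axis, in sham and IRI, with a point per library and lines joining the group means. The lines of Hmx2 and Emx1 fall across those of other genes, and Foxi1 stays at the top in both groups.

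Foxi1 was read at 1220.2, 1292 and 1054 CPM in the 3 sham libraries and at 1835, 1641 and 1091 CPM in the 3 IRI libraries. The first 2 IRI libraries were above all sham libraries, and IRI replicate 3 lay within the sham range. The fitted log2 fold change had a 95% interval of -0.07 to 0.78, which spans a fold of 0.952 to 1.72. Without IRI replicate 3 the difference passed the test (log2 0.55, adjusted p = 0.0149, edgeR), so this library decides the call.

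Tfcp2l1, which in the developing duct is needed for the mixed pattern of intercalated and principal cells, was read at 737, 645 and 609 CPM in sham and at 375, 325 and 357 CPM after IRI. The groups were far apart and tight: the mean went from 664 ± 65.7 to 352 ± 25.2 CPM. Tfcp2l1 fell by 0.91 on the log2 scale (SE 0.11, 95% interval -1.17 to -0.66, adjusted p = 0.000315). It moved from above 92.9% of tested genes by RPKM to above 86.2%.

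Hmx2, a homeobox factor best known from the developing inner ear, was read at 239, 589 and 370.4 CPM in sham and at 45.2, 67.2 and 42.8 CPM after IRI. The sham libraries differed by up to 2.46-fold among themselves, with sham replicate 2 the highest, yet the lowest sham library was well above the highest IRI library. Hmx2 fell by 2.95 on the log2 scale (SE 0.37, 95% interval -3.83 to -2.06, adjusted p = 0.00104). Without sham replicate 2 it fell by 2.56 (adjusted p = 0.00077). By the size of the fitted fall it ranked 35 among the 13881 genes tested.

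Emx1, a homeobox factor known from the cerebral cortex, was read at 23.7, 17.1 and 22.0 CPM in sham and at 4.98, 3.39 and 3.86 CPM after IRI. Both groups were narrow and did not overlap. Emx1 fell by 2.36 on the log2 scale (SE 0.20, 95% interval -2.81 to -1.90, adjusted p = 4.94e-05). It ranked 91 by the size of the fitted fall, and by RPKM it moved from above 67.4% of tested genes to above 34.7%.

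Dmrt2, a factor of the doublesex family that patterns the somites of the embryo, was read at 300.2, 249 and 256 CPM in sham and at 352, 224 and 208 CPM after IRI. IRI replicate 1 was the highest of the 6 libraries and the other 2 IRI libraries were the lowest. The log2 fold change was -0.04 ± 0.20 (95% interval -0.49 to 0.42, adjusted p = 0.892). Leaving out 1 library moved it between -0.31 (without IRI replicate 1, adjusted p = 0.0745) and 0.10 (without IRI replicate 3), and it was also above 0 without sham replicate 1 or IRI replicate 2, so Dmrt2 has no stable direction here.

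Gata3, a zinc finger factor of the nephric duct and the collecting duct, was read at 136, 120.1 and 124 CPM in sham and at 149, 136 and 134 CPM after IRI. The ranges overlapped only at their edges, and the log2 fold change was 0.14 ± 0.09 (95% interval -0.08 to 0.35, adjusted p = 0.265). Grhl2, a grainyhead factor that maintains epithelial junctions, was read at 24.9, 20.3 and 20.6 CPM in sham and at 22.3, 24.1 and 23.3 CPM after IRI. Its IRI values lay inside the sham range, with a log2 fold change of 0.08 ± 0.13 (95% interval -0.21 to 0.37, adjusted p = 0.635). These are the 2 narrowest intervals among the 5 genes that did not pass.

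Elf5, an ETS factor of glandular and duct epithelium, was read at 9.59, 23.4 and 15.7 CPM in sham and at 11.4, 8.57 and 14.6 CPM after IRI. The spread within sham was as wide as for Hmx2, again with sham replicate 2 the highest and sham replicate 1 the lowest. The log2 fold change was -0.49 ± 0.33 (95% interval -1.27 to 0.28, adjusted p = 0.263). It was -0.79 without sham replicate 1, which passed the test (adjusted p = 0.048), and -0.13 without sham replicate 2, so Elf5 has no stable value here.

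A ratio of 2 genes within a library does not depend on how libraries are scaled. With 3 libraries against 3, an exact two-sided permutation test cannot go below p = 0.1, so no such ratio can pass 0.05. Relative to Foxi1, Hmx2 differed between the groups by -3.21 on the log2 scale, Emx1 by -2.69, Tfcp2l1 by -1.24 and Dmrt2 by -0.40, each with groups that did not overlap (exact permutation p = 0.1, adjusted p = 0.175 over the 7 ratios). The differences of Elf5 (-0.76, exact permutation p = 0.2), Grhl2 (-0.24, p = 0.5) and Gata3 (-0.19, p = 0.4) came from overlapping groups. Dmrt2 thus lay lower beside Foxi1 in every IRI library, but narrowly: its log2 ratio was -2.384 in IRI replicate 1 and -2.376 in sham replicate 2. Its own level overlapped between groups.

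**Figure D3:**
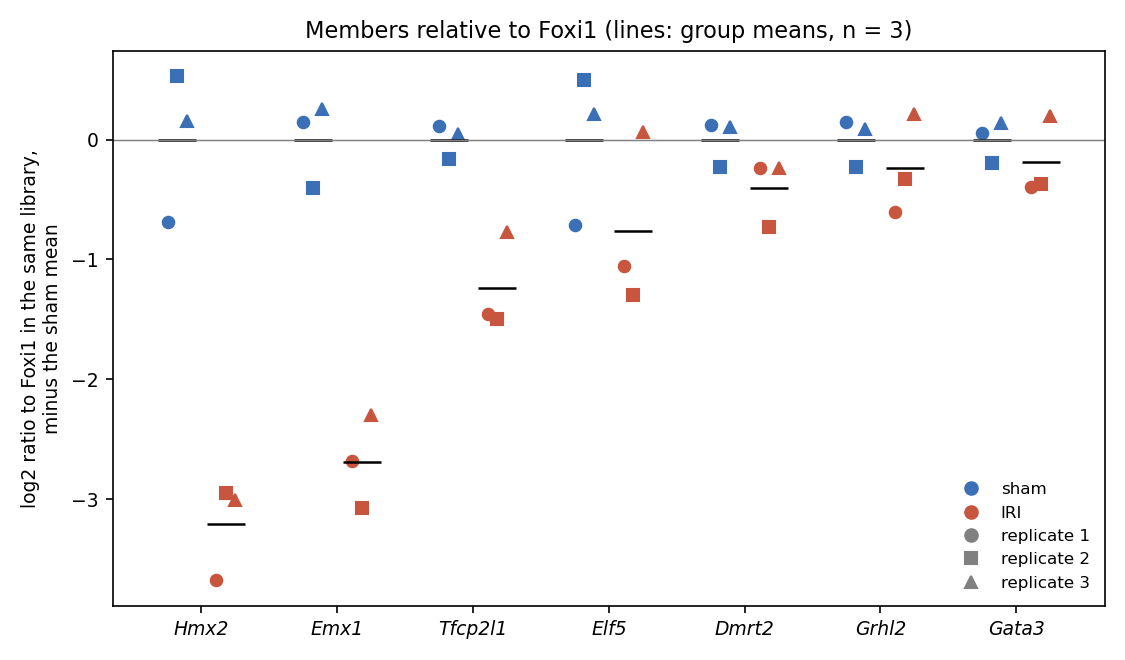
Log2 ratio of the other 7 transcripts to Foxi1 in each library (y axis, minus each gene's sham mean), with sham and IRI side by side for each gene and lines at the means of n = 3. The groups are apart for Hmx2, Emx1, Tfcp2l1 and, narrowly, Dmrt2.

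The members were also set against the summed counts of Atp6v1b1 and Atp6v1g3, the proton pump subunits of intercalated cells. Another denominator shifts the differences of all members by the same amount, so their order cannot change. Only the size and the overlap of groups can. The log2 ratio differed by -2.80 for Hmx2, -2.28 for Emx1 and -0.83 for Tfcp2l1 (exact permutation p = 0.1 and adjusted p = 0.267 for each), with no overlap. Foxi1 differed by 0.41 (exact permutation p = 0.2) and Dmrt2 by 0.00 (exact permutation p = 1), with overlap. The sum of principal cell markers was lower after IRI, and a ratio to it, added after the data were seen, moved all values upwards by the same amount. Aqp2, the largest part of the sum, went from 9363 ± 329 to 6578 ± 2443 CPM and was not called (adjusted p = 0.127, edgeR). Cdh16, the next largest, was near 0 (log2 0.04 ± 0.11). Against that sum Hmx2 differed by -2.36 and Emx1 by -1.84 without overlap, Tfcp2l1 by -0.39 with overlap (exact permutation p = 0.2), and Foxi1 by 0.85, Gata3 by 0.66, Grhl2 by 0.61 and Dmrt2 by 0.45 without overlap (exact permutation p = 0.1, adjusted p = 0.133). The part of a changed mix of cells in these values was not tested.

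The 250 bases before the transcription start are shown for the 3 genes that fell and for Foxi1, the leading member that did not. They come from RefSeq on GRCm38.p6, while the submitters' processing notes name mm9 for the reads. Each is written 5′ to 3′ along the gene, and capitals mark the only motif matches found. Tfcp2l1 lies at chr1:118627695-118627944 (+ strand), Hmx2 has 2 listed starts with chr7:131548507-131548756 and chr7:131554043-131554292 (+ strand), Emx1 lies at chr6:85187681-85187930 (+ strand) and Foxi1 at chr11:34208090-34208339 (− strand).
Tfcp2l1: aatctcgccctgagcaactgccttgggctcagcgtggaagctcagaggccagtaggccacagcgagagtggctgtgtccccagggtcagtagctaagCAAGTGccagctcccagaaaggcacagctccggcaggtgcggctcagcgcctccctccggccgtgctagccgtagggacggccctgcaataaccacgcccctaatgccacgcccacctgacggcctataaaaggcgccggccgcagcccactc
Hmx2, first start: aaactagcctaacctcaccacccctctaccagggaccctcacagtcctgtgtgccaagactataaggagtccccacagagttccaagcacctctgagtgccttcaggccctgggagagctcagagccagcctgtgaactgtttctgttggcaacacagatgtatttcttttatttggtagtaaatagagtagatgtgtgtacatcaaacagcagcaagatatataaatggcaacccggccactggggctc
Hmx2, second start: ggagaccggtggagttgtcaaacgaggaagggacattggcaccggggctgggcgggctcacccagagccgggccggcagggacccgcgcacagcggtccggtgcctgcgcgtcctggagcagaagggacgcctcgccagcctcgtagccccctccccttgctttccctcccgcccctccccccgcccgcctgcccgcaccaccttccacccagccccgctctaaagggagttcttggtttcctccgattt
Emx1: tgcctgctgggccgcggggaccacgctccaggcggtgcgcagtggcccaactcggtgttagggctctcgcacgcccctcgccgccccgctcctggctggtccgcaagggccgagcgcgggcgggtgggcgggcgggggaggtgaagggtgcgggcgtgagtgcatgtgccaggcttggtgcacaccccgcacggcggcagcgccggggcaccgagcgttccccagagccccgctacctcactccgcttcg
Foxi1: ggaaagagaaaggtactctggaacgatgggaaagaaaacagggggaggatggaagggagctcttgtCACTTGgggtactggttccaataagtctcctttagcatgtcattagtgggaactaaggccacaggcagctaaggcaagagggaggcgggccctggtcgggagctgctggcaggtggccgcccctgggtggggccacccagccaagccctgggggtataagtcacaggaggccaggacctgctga

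RefSeq listed 9 promoter windows of 300 bases (250 before to 50 after the start) for 7 of the 8 genes, and Grhl2 had no entry. The windows were searched on both strands for core letters of the members' own families, except the CP2 family of Tfcp2l1, for which no motif was searched. CAAGTG, a core of HMX factors, was found in Tfcp2l1, 153 bases before the start, and in Foxi1 on the opposite strand (CACTTG as printed), 184 bases before the start. The same 6 letters occur in 13.6% of all 32851 promoters listed. The other motifs searched were absent from all 9 windows. They were the forkhead core TGTTTAC, which 3.65% of all promoters hold, and the grainyhead motif AACCGGTT, which 0.146% hold. Of the homeobox motifs, the HMX form CAATTAA occurs in 2.58% of all promoters and the general form TAATTA in 5.29%. The zinc finger motif AGATAA, read by GATA factors, occurs in 11.2% of them. For ETS factors the search used CCGGAAG, which is held by 8.86% of all promoters, and also the alternative form AGGAAGT, which is held by 9.35%. The doublesex family motif was ACANTGT, which is held by 7.54%. A match is a run of letters and not a site, and its absence from these windows says nothing about a factor. Each gene that fell had a start at or above both upper quartiles of all promoters (61.2% G and C, 16 CpG pairs). Of the members not called, Gata3 had one too (70.0% and 19), while Dmrt2 (62.4% and 14), Elf5 and Foxi1 did not. Emx1 held 75.6% G and C with 30 CpG pairs, the second Hmx2 start 70.0% with 21, Tfcp2l1 65.2% with 16 and the first Hmx2 start 49.6% with 1, beside 58.8% and 4 in Foxi1 and medians of 52.4% and 6 over all promoters.

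Counting did not separate strands, so overlapping genes may matter for some members. By GENCODE M21 names, Fgfr2, a growth factor receptor gene, overlaps Hmx2 on the opposite strand. It had 1729 reads in sham and 3527 after IRI, and moved opposite to Hmx2 (log2 1.08 ± 0.18, adjusted p = 0.00141). Gm16136, an antisense RNA gene, overlaps Grhl2 and held more reads than Grhl2 itself (6444 in sham and 5141 after IRI). Gata3 overlaps Gm13256, 4930412O13Rik and 9230102O04Rik, which had 13, 44 and 199 reads in sham and 7, 55 and 192 after IRI. Overlap here is of whole gene spans, introns included, and whether counted exons are shared was not tested. How reads from a shared stretch were assigned is not stated. The values of Grhl2 and of Hmx2, which had 3358 reads after IRI, are uncertain to that extent.

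Of 24 listed relatives of the members, 11 passed the filter on low counts and 13 were not tested. All 11 that passed were called, 7 higher and 4 lower (median log2 0.44), beside 24.2% higher and 21.2% lower over all genes tested. Foxi2, Foxi3, Hmx1, Dmrt1 and Dmrt3 had 0 reads in all libraries. The count of higher relatives was 4 with library size as the only scaling, 4 without sham replicate 3 and 5 without sham replicate 2. That of lower relatives was 3 with limma-voom, with the stricter filter, and when IRI replicate 1 or IRI replicate 3 was left out.

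The homeobox relatives fell in the same direction as the members. Hmx3, the neighbour of Hmx2 on the same strand, had 22, 148 and 49 reads in sham and 5, 14 and 3 reads after IRI. Both genes were highest in sham replicate 2 and, among IRI libraries, in IRI replicate 2. Hmx3 fell by 3.25 on the log2 scale (SE 0.83, adjusted p = 0.0153), a call lost without IRI replicate 1 (adjusted p = 0.0588), without IRI replicate 3 (adjusted p = 0.0548) and with limma-voom (adjusted p = 0.0591). Emx2, which is required for the embryonic ureteric bud, went from 47.0 ± 8.93 to 27.7 ± 5.47 CPM (log2 -0.76 ± 0.18, adjusted p = 0.00782). By RPKM, Emx2 at 15.1 to 20.8 in sham was above Emx1 in every library, and its fitted fall was the smaller of the pair.

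In the CP2 and grainyhead families the relatives went in different directions. Tfcp2, a relative of Tfcp2l1 in the CP2 family, fell from 15.2 ± 1.23 to 8.95 ± 2.18 CPM (log2 -0.77 ± 0.19, adjusted p = 0.0102). Ubp1, of the same family, rose from 30.0 ± 2.12 to 40.7 ± 2.94 CPM (log2 0.44 ± 0.11, adjusted p = 0.0115), but not with library size alone (log2 0.24, adjusted p = 0.153) or without sham replicate 3 (log2 0.35, adjusted p = 0.0843). Grhl1, a relative of Grhl2, was at 8.49, 4.72 and 6.53 CPM in sham and 11.7, 19.2 and 23.6 CPM after IRI (log2 1.46 ± 0.30, adjusted p = 0.00504). By RPKM, Grhl1 lay below Grhl2 in all 3 sham libraries and in IRI replicate 1, and above it in IRI replicates 2 and 3 (5.40 and 6.65 RPKM beside 4.19 and 4.05). Grhl3 had 13 reads in sham and 19 after IRI.

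Gata2, the other GATA factor above the filter, fell from 116 ± 2.33 to 80.4 ± 15.0 CPM (log2 -0.53 ± 0.14, adjusted p = 0.012), whereas Gata3 did not pass. Most of the higher relatives were ETS factors related to Elf5. Elf3, an epithelium-specific member of that family, rose from 102 ± 6.99 to 326 ± 44.8 CPM (log2 1.67 ± 0.12, adjusted p = 2.55e-05). Elf4 (log2 1.86 ± 0.25, adjusted p = 0.000423) and Elf1 (log2 0.72 ± 0.10, adjusted p = 0.000532) rose too, from 2.53 and 60.2 CPM. Ehf rose from 95.4 ± 26.3 to 151 ± 7.45 CPM (log2 0.66 ± 0.18, adjusted p = 0.0157), a call lost with library size alone (adjusted p = 0.0804) and without sham replicate 2 or 3 (adjusted p = 0.0537 and 0.0608). Elf2 was called at log2 0.35 ± 0.11 (adjusted p = 0.0329), and lost the call in 5 of the 6 fits that left out a library (largest adjusted p = 0.141, without sham replicate 3) and with library size alone (adjusted p = 0.311). By RPKM, Elf3 led these ETS genes in every library, at 48.7 to 55.5 in sham and 138 to 176 after IRI, and Elf5 with 1.64 to 4.62 RPKM was above Elf4 alone.

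**Figure D4:**
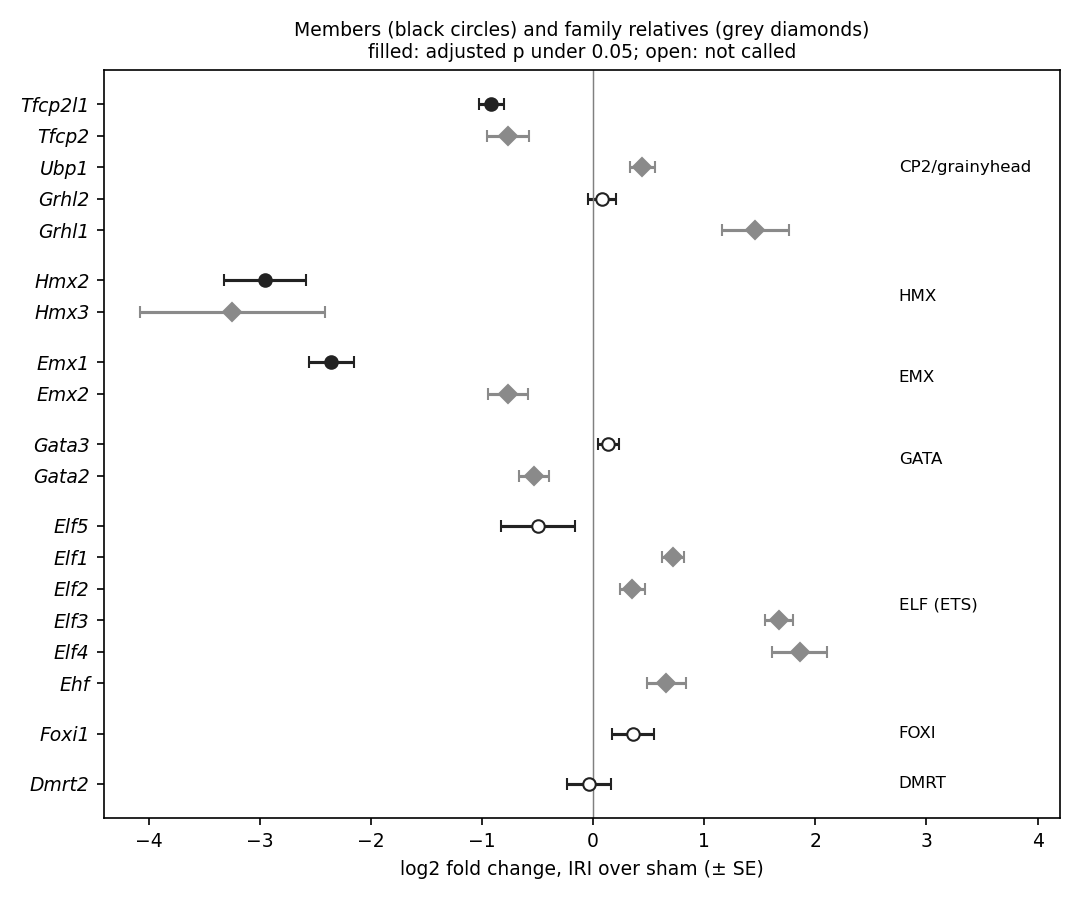
The x axis gives the log2 fold change (IRI over sham, ± SE) of the 8 members (circles) and their 11 tested relatives (diamonds), grouped by family, filled where the adjusted p was under 0.05. HMX and EMX genes lie left of 0, and the ETS relatives of Elf5 lie right of it.

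Among 20 other transcription factors of the collecting duct and distal nephron, 18 were tested. Of these, 3 were higher and 8 lower (median log2 0.07), beside 24.2% higher and 21.2% lower over all genes tested. Hoxb7 and Tfap2a were among the higher ones, and neither stayed called with upper-quartile scaling or library size alone, which left 1 higher. Without sham replicate 2 or sham replicate 3 there was also 1 higher. Hoxb7, whose promoter is widely used to mark the ureteric bud, was called at log2 0.33 ± 0.10 (adjusted p = 0.0235) and lost the call without sham replicate 2 or 3 and without IRI replicate 1 or 2 (largest adjusted p = 0.131). Tfap2a was called at log2 0.57 ± 0.17 (adjusted p = 0.0229) and lost the call without sham replicate 1, 2 or 3 or IRI replicate 3 (largest adjusted p = 0.0957).

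Hoxd8, the factor with the most reads in this list, fell from 469.5 ± 81.5 to 257 ± 45.2 CPM (log2 -0.87 ± 0.17, adjusted p = 0.00332), a change close to that of Tfcp2l1. Foxp1 (log2 0.46, adjusted p = 0.0646), Pax8 (log2 0.41, adjusted p = 0.052) and Sox4 (log2 0.22, adjusted p = 0.203), which also had many reads, did not pass. Foxp1 passed without IRI replicate 1 (adjusted p = 0.0117), Pax8 without IRI replicate 3 (adjusted p = 0.0075) and Sox4 without sham replicate 1 (adjusted p = 0.0209). Nr3c2, the mineralocorticoid receptor gene, which was chosen after its value was seen, fell by 1.41 on the log2 scale (SE 0.11, adjusted p = 2.93e-05).

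Among the genes that carry out the work of intercalated cells, some overlapped between groups and others were lower. Of 23 such effector genes, all tested, 1 was higher, 9 were lower and 13 were not called (median log2 -0.30). Over all genes tested, 24.2% were higher and 21.2% lower. With library size alone 12 effector genes were lower, and without sham replicate 2 the number was 6. Without sham replicate 2 or IRI replicate 1, 2 were higher. Car2, the carbonic anhydrase that supplies protons (log2 0.02 ± 0.14, adjusted p = 0.934), and the pump subunits Atp6v1g3 (log2 -0.02 ± 0.17, adjusted p = 0.947) and Atp6v0d2 (log2 0.01 ± 0.12, adjusted p = 0.97) were near 0. The pump subunits Atp6v1a (log2 -0.37 ± 0.11, adjusted p = 0.0247) and Atp6v1c2 (log2 -0.87 ± 0.23, adjusted p = 0.0165) were called lower. Atp6v0a4 was not called (log2 0.01 ± 0.11, adjusted p = 0.971). These last subunits were chosen after their values were seen. Atp6v1e1 was at log2 -0.14 ± 0.13 (adjusted p = 0.426), and passed the test as lower when libraries were scaled by size alone (log2 -0.34, adjusted p = 0.022). Slc26a4, the type B anion exchanger pendrin, was at log2 -0.28 ± 0.22 (adjusted p = 0.326).

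Rhcg, an ammonia channel, fell from 2414 ± 160.0 to 1200.0 ± 313 CPM (log2 -1.01 ± 0.19, adjusted p = 0.00283). The gene of the chloride channel subunit barttin, Bsnd, chosen after its value was seen, fell from 341 ± 65.0 to 43.3 ± 2.93 CPM (log2 -2.97 ± 0.16, adjusted p = 7.69e-06), a size like that of Hmx2. Atp6v1b1, the gene of the B1 subunit after which the EGFP mice are named, was called at log2 -0.37 ± 0.13 (adjusted p = 0.0427). That call was lost without sham replicate 2 (adjusted p = 0.119), sham replicate 3 (0.0882), IRI replicate 1 (0.116) or IRI replicate 3 (0.101). P2ry14, the receptor named in the series title and the 1 higher effector, was at 195 ± 47.0 CPM in sham and rose to 420.1 ± 49.6 CPM after IRI (log2 1.11 ± 0.17, adjusted p = 0.00115).

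**Figure D5:**
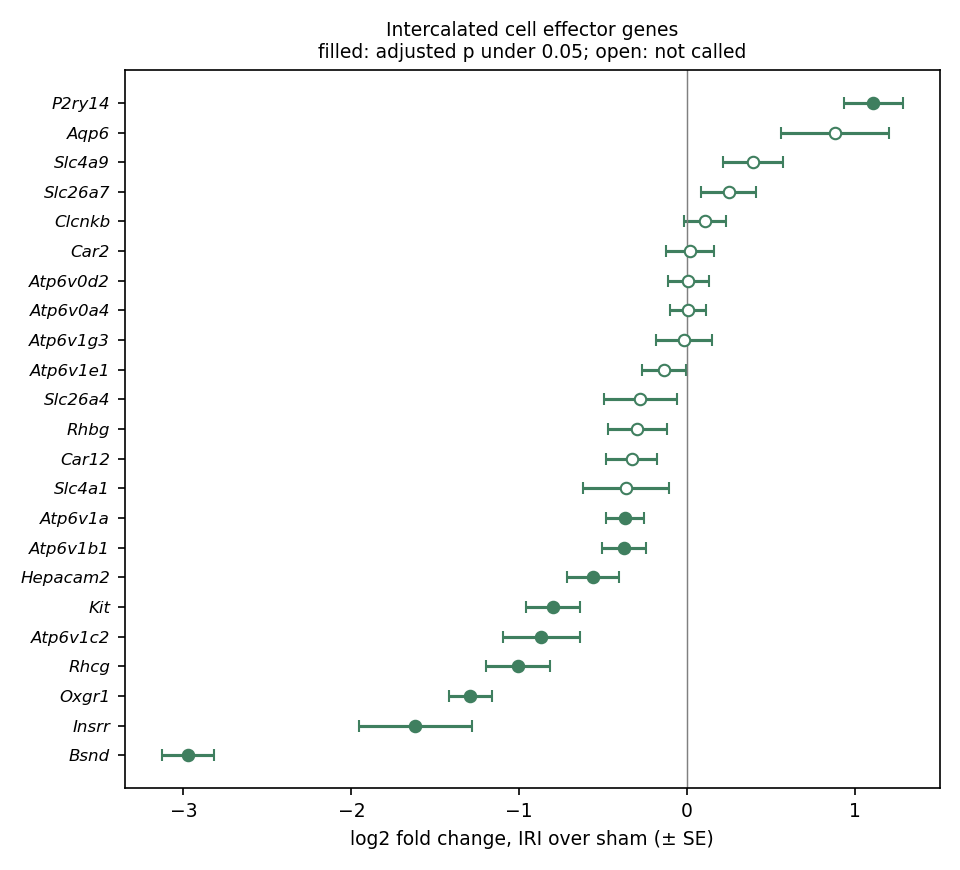
The x axis gives the log2 fold change (IRI over sham, ± SE) of the 23 effector genes of intercalated cells, ordered by value and filled where the adjusted p was under 0.05. Bsnd is the leftmost at -2.97 and P2ry14 the rightmost at 1.11, and Car2, Atp6v1g3 and Atp6v0d2 sit near 0.

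Markers of the 2 main intercalated cell types overlapped between groups as sums. Type A markers summed to 1668, 1219 and 1314 CPM in sham and 1131, 1735 and 1660 CPM after IRI. Of the 5 type A markers tested, Kit was called lower (log2 -0.80 ± 0.16, adjusted p = 0.00414) and 4 were not called, beside 21.2% lower over all genes tested. Aqp6, at log2 0.88 ± 0.32 (adjusted p = 0.0604), was among those not called. With DESeq2, 1 type A marker was higher. Type B markers summed to 4821, 6633 and 5552 CPM in sham and 4046, 5677 and 4821 CPM after IRI. Both this sum and Hmx2 were highest in sham replicate 2, but only Hmx2 separated the groups. Within type B, Insrr (log2 -1.62), Oxgr1 (log2 -1.29) and Hepacam2 (log2 -0.56) fell and Pde1c rose (log2 1.07). The other 2 listed, Slc4a9 (log2 0.39 ± 0.18, adjusted p = 0.102) and Slc26a4, were not called.

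Of 15 listed Notch pathway genes 13 were tested. Of these, 4 were higher and 1 was lower (median log2 0.23), beside 24.2% higher and 21.2% lower over all genes tested. With IRI replicate 1 or IRI replicate 2 left out, 2 were lower. Notch1, a receptor, rose from 3.72 ± 0.674 to 9.20 ± 0.651 CPM (log2 1.30 ± 0.20, adjusted p = 0.000868). Target genes went both ways: Heyl rose (log2 2.22 ± 0.23) from 2.65 to 12.4 CPM and Hey1 rose (log2 2.43 ± 0.56) from 0.330 to 1.74 CPM, while Hey2 fell (log2 -1.47 ± 0.36) from 3.83 to 1.38 CPM. Adam10, the protease that cuts Notch receptors, was the other higher gene (log2 0.86 ± 0.23, adjusted p = 0.0158), a call lost without sham replicate 2 or 3 (adjusted p = 0.0564 and 0.0729) and with library size alone (adjusted p = 0.0611). Hes1, the most abundant target (log2 0.29 ± 0.13, adjusted p = 0.0985), and Jag1, a ligand known to depend on Tfcp2l1 (log2 -0.34 ± 0.17, adjusted p = 0.135), did not pass, but Jag1 was lower without IRI replicate 1 (log2 -0.53, adjusted p = 0.0222).

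Gata3 and Elf5 are also expressed beside principal cell markers. Of 11 such markers tested, 5 were lower and 0 higher (median log2 -0.42), beside 21.2% lower and 24.2% higher over all genes tested. The count of 0 higher was also 0 at an unadjusted p under 0.05 and with DESeq2 and limma-voom. That of lower markers was 7 with DESeq2 and with a replicate block. It was 4 without sham replicate 3, without IRI replicate 2 and with no filter beyond 1 read. Hsd11b2 (log2 -1.51 ± 0.29), Kcnj1 (log2 -2.34 ± 0.35) and Kcne1 (log2 -1.50 ± 0.35) fell the most, and Aqp3 (log2 -0.40 ± 0.12) and Scnn1a (log2 -0.42 ± 0.12) less. Aqp3 lost its call without sham replicate 3 or IRI replicate 2 and Scnn1a without sham replicate 2 or IRI replicate 1. Aqp2, the most abundant of them, did not pass (log2 -0.51 ± 0.25, adjusted p = 0.127) but did without IRI replicate 1 (log2 -0.81, adjusted p = 0.0119). The part of principal cell RNA in the values of the 8 members was not tested.

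The genes whose profiles over the 6 libraries were most like each member's are given as a description, among the 8317 genes whose log2 CPM averaged 3 or more. For Tfcp2l1 they included Rbl2 (Pearson r = 0.999), for Hmx2 they were Tsfm (0.997) and Acn9 (0.997), and for Emx1 Xrcc6bp1 (0.998) and Flywch1 (0.998). These 5 fell with the member, and these correlations include the difference between the 2 groups. Hmx2 fell by 2.95 on the log2 scale and its likest gene Tsfm by 0.54, so a like profile here is not a like size of change. For Foxi1 they were Fam40a (0.993) and Rsad1 (0.992), for Dmrt2 Pigs (0.981) and Ecd (0.976), for Gata3 Tprgl (0.996) and Smek1 (0.995), for Elf5 Ctdsp1 (0.991) and Gstm5 (0.989) and for Grhl2 Cct4 (0.982) and Arl5a (0.978). None of these 10 was called, and points of a correlation share library scaling and depth.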

How the data were processed

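Read counts per gene and RPKM were used for 3 sham and 3 IRI libraries, grouped by their titles. The counts are whole numbers and were deposited without normalization, counted without strand per the file names. The deposited RPKM values, with symbols and lengths per the file headers, equal the count over length and an effective library size, so they are not independent of the counts. The submitters' processing notes name STAR, HTSeq, edgeR and mm9, with no version or role. Entries that name no gene, 49.3% to 50.9% of a library's reads, were left out.

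Genes passing filterByExpr (13881) were fitted with edgeR 4.0.16 in R 4.3.3, with TMM scaling, a robust quasi-likelihood model with group as its only term, and Benjamini-Hochberg adjustment. The threshold was an adjusted p of 0.05 and the biological coefficient of variation 19.0%. CPM used TMM-scaled library sizes, and ratios within a library had 0.5 reads added. Alternatives were other scalings, filters, DESeq2 1.42.0, limma 3.58.1 (voom, and log2(RPKM + 0.1) or + 1), a replicate block and leaving out each library. The steps were tested on simulated counts.

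The members and lists were chosen with earlier results of these data known. The text names all members, called family relatives, up to 6 genes of each other list by level, the 2 likest genes of each member, genes behind counts of 5 or fewer, and genes said to be chosen after their values were seen, which also holds for the genes overlapping a member, the type B genes named and P2ry14. Some genes that this rule names are not reported here. RefSeq promoters were matched by symbol. Precision is limited by 3 pooled samples per group.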

Additional observations from a re-analysis of the deposited data

How the results depend on the processing

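The 3 lower members kept direction and call under all 16 alternatives (log2 -1.11 to -0.86 for Tfcp2l1, -3.24 to -2.56 for Hmx2 and -2.55 to -1.91 for Emx1). Leaving out 1 library at a time gave log2 0.21 to 0.55 for Foxi1 (adjusted p = 0.0149 at the upper end, without IRI replicate 3, edgeR) and -0.79 to -0.13 for Elf5 (adjusted p = 0.048 at the lower end, without sham replicate 1), 0 to 1 members higher and 3 to 4 lower. The cause was not tested. With library size alone, which moved the median gene by -0.20, higher relatives numbered 4 in place of 7, other duct factors 1 in place of 3 (1 also with upper-quartile scaling, which moved the median by -0.12), and lower Notch genes 3 in place of 1. The share of higher genes among all calls was 53.3% with TMM, 42.0% by upper quartiles and 35.6% by library size. Without passing, Gata3 and Grhl2 changed sign with library size alone (log2 -0.06 and -0.12), Grhl2 also with upper-quartile scaling (-0.04), and Dmrt2 without sham replicate 1 (0.03), IRI replicate 2 (0.05) or IRI replicate 3 (0.10). With principal cell markers as denominator in place of the pump genes, a choice made after the data were seen, log2 ratios differed by 0.85 for Foxi1, -0.39 for Tfcp2l1, -2.36 for Hmx2, 0.66 for Gata3 and 0.61 for Grhl2. The shift from the values with the pump genes was the same for every member.

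Sham and IRI replicates share numbers in the titles, but same-numbered libraries deviated together only weakly (r = 0.18, 0.10 and 0.18 across genes), so they were not treated as pairs. All 6 libraries correlated best with their own number, a hint from the data and not the design. A replicate block left 0 members higher and 3 lower: Foxi1 was at log2 0.33 (adjusted p = 0.0587), Tfcp2l1 at -0.91, Hmx2 at -2.88, Emx1 at -2.36, Dmrt2 at -0.07, Gata3 at 0.14, Elf5 at -0.43 and Grhl2 at 0.09. Over all genes it gave 3368 higher and 3095 lower in place of 3364 and 2948.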

Other observations

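Near Gata3, the antisense gene Gm13262, within 20 kb on the opposite strand by GENCODE M21 names, fell by 2.62 on the log2 scale (SE 0.27, adjusted p = 0.000114, edgeR), from 946 reads in sham to 145 after IRI, while Gata3 itself did not pass. It was picked out after its value was seen, and its relation to Gata3 was not tested.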
